A study of Mus musculus with 2 samples.

Results

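The neutrophil granule genes were 10 of the 54532 mouse genes listed, taken by gene symbol and set in the order in which a maturing neutrophil makes their products. The primary granule genes were Mpo, Elane and Prtn3, the secondary granule genes were Camp, Ngp, Ltf and Lcn2, and the late genes were Retnlg, S100a8 and S100a9. The rule itself takes symbols and no measured value, but the symbols were chosen with earlier results of these data known. Both groups were male ApoE-/- mice on the C57BL/6J background, so the knockout was shared. The labels give an age of 6 weeks for both. The sources used here do not say whether this was the age at the start or at sampling. The PDR group, a model of phlegm-dampness retention, ate a high-fat diet for 4 weeks. The SKYD group, a model of spleen and kidney Yang deficiency, was given propylthiouracil, a drug that blocks thyroid hormone synthesis, at 10 mg/kg per day over 4 weeks, and a high-fat diet over the next 2 weeks. Aortic cells stained for F4/80 and CD11b were sorted as macrophages, the cells of 5 mice were pooled, and 1 library was sequenced for each group. Syndrome, drug, weeks of diet, total time and any difference in age at sampling therefore cannot be told apart, and no difference has a replicate check. The PDR library held 23086889 reads on genes and the SKYD library 25427863.

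Neutrophils are made in the bone marrow, and their granules are filled in sequence. The promyelocyte makes the primary granules, which carry myeloperoxidase and the serine proteases, the myelocyte makes the secondary granules, which carry lactoferrin and cathelicidin, and the late genes stay on in the mature cell. Primary granule transcripts are largely gone from mature neutrophils, so the balance of early over late transcripts is commonly read as a measure of maturation. CD11b is carried by neutrophils and monocytes as well as by macrophages, and S100a8 and S100a9 are also made by monocytes.

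Levels are FPKM, fragments per kilobase of gene, scaled to a library size. The size behind the deposited values was 1.017 times the sum of reads on genes in PDR and 0.983 times in SKYD. A difference is log2(FPKM + 1) in PDR minus the same in SKYD, a scale that understates the difference of genes near 0. Intervals are exact 95% intervals from the numbers of reads and cover counting error only. The filter, a mean FPKM of 1 or more over both libraries, left 10399 genes to be tested and was passed by all 10 members, by Mpo only through its level in PDR. The knocked-out gene, Apoe, had 345 FPKM in PDR and 67.7 FPKM in SKYD. A value for a whole gene does not show whether its reads lay outside the deleted part, so it does not check the genotype.

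The granule genes did not differ in 1 direction, and the primary ones were split. Mpo, Elane and Ltf, 3 of 10 members, exceeded a 2-fold difference towards PDR, which 7.38% of all tested genes did. Towards SKYD 0 of 10 members exceeded it, beside 6.91% of all tested genes. The other members were within 2-fold, with Ngp, at a difference of 0.998, just inside it. In sign, 8 members were higher in the PDR library and 2, Prtn3 and Retnlg, were lower, beside 5158 higher and 5240 lower of the 10399 tested genes. The 8 include Lcn2, whose interval (-0.03 to 0.11) includes 0. The median difference was 1.89 for the primary genes, 0.93 for the secondary genes and 0.37 for the late genes, beside -0.0035 for all tested genes, whose middle 50% ran from -0.36 to 0.35. The primary median is the value of Mpo itself, which passed the filter only through PDR, and it hides a range from -0.75 to 2.36, against 0.04 to 1.17 for the secondary and -0.32 to 0.40 for the late genes. In samples of many cells, fewer cells of a type and less RNA per cell cannot be told apart, which holds for each value given here.

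**Figure D1:**
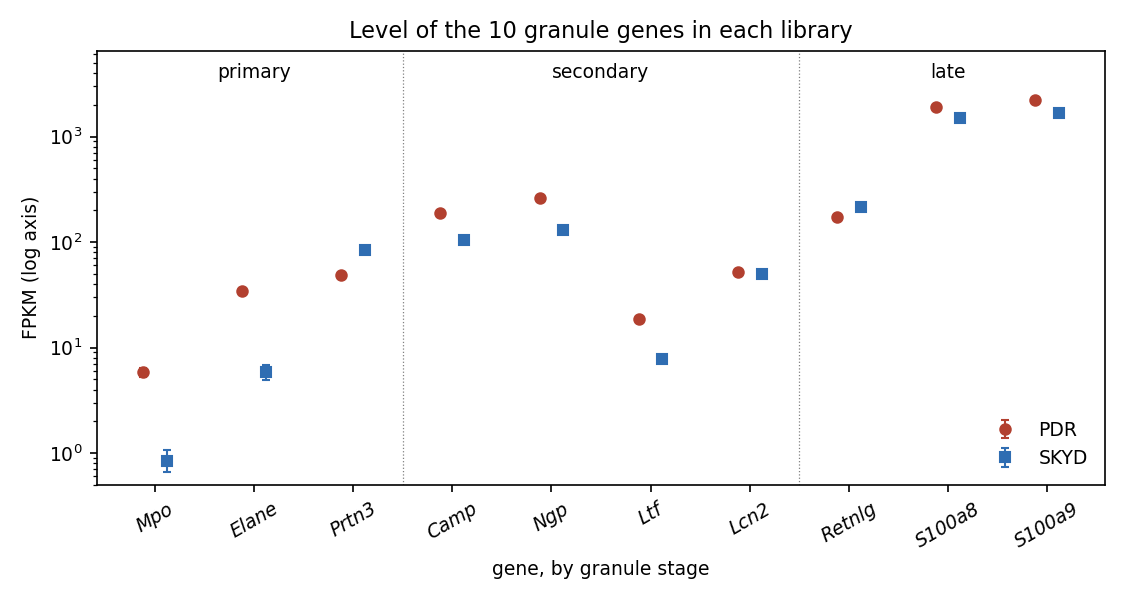
Level of each of the 10 granule genes in FPKM (log axis) in the PDR library (circles) and the SKYD library (squares), ordered by granule stage, with exact 95% Poisson intervals for counting error, most of them smaller than the symbol. Mpo and Elane sit higher in PDR, Prtn3 and Retnlg sit higher in SKYD, and the S100 genes lie above the other 8 genes in both libraries.

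The plot of levels by stage shows how far apart the members stood. In both libraries the order by FPKM was S100a9, S100a8 and then a group holding Ngp, Camp and Retnlg, with Mpo lowest. S100a9 ranked 36 among all genes in PDR and 43 in SKYD, and S100a8 ranked 45 and 50. The middle of the order differed between the libraries. Retnlg stood below Ngp and Camp in PDR and above both in SKYD, and Prtn3 stood just below Lcn2 in PDR, where the intervals of the levels overlap (47.1 to 51.4 and 49.9 to 53.5 FPKM), and above it in SKYD.

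Mpo encodes myeloperoxidase, the heme enzyme that makes hypochlorous acid and gives the primary granule its classical stain. The gene (ENSMUSG00000009350, chr11:87793581-87804413, plus strand, GRCm38) had 5.81 FPKM from 467 reads in PDR and 0.841 FPKM from 72 reads in SKYD. The intervals of these levels, 5.29 to 6.36 and 0.658 to 1.06 FPKM, did not overlap. The ratio of the levels was 6.90 (5.38 to 8.97), and the difference was 1.89 (1.69 to 2.07). Mpo lay at percentile 97.8 of all tested genes in the PDR direction. Mpo had the fewest reads of the 10 genes, and with smaller pseudocounts of 0.1 and 0.01 its difference was 2.65 and 2.77.

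Elane encodes neutrophil elastase, a serine protease of the same granule. The gene (ENSMUSG00000020125, chr10:79886247-79888215, plus strand) had 34.1 FPKM from 788 reads in PDR and 5.81 FPKM from 143 reads in SKYD. The ratio was 5.86 (4.90 to 7.06) and the difference 2.36 (2.14 to 2.59), at percentile 98.9 of all tested genes. Whether Elane and Mpo differed by the same factor could not be resolved at this depth. The ratio of Elane to Mpo was 5.87 in PDR and 6.91 in SKYD, and the ratio of these 2 ratios, 0.850, had an interval that includes 1 (0.617 to 1.16).

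Prtn3 encodes proteinase 3, a serine protease closely related to elastase, and it did not follow them. The gene (ENSMUSG00000057729, chr10:79874476-79883174, plus strand) had 49.2 FPKM from 2002 reads in PDR and 83.4 FPKM from 3609 reads in SKYD. It was 1.69-fold (1.60 to 1.79) higher in the SKYD library, with a difference of -0.75 (-0.83 to -0.67), at percentile 10.5 of all tested genes. Prtn3 ends 3072 bases before Elane starts, on the same strand, so the neighbouring protease genes differed in opposite directions. Elane stood at 0.693 of the Prtn3 level in PDR and at 0.0697 in SKYD, a 9.93-fold difference in ratio (8.23 to 12.1). For Mpo over Prtn3 the values were 0.118 and 0.0101, an 11.7-fold difference (9.04 to 15.3). These ratios are formed inside a library and do not depend on its size, and the pairs were chosen after the values were seen. The annotated Prtn3 overlaps Plppr3, which had 75 and 35 reads, and 5.67% of the 64-base windows of Prtn3 transcripts also occur in Plppr3. Mpo shares 7.91% of such windows with the overlapping Gm11505, which had 0 reads in both libraries, and the other 8 members share none with any gene.

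The sequences upstream of these genes are given for description. Whether they bear on the split of the primary genes was not tested. All 10 members had an entry among the RefSeq promoters (GRCm38.p6), which run from 250 bases before to 50 bases after the start. The letters AGGAAGT, the kind of site that PU.1 and other ETS factors bind, were searched on both strands and are in capitals in the runs below, each of which ends before the first annotated exon within its promoter window. They lie at chr11:87793534-87793580 for Mpo, chr10:79886062-79886246 for Elane and chr10:79879417-79879613 for Prtn3, all on the plus strand, and at chr14:56102575-56102824 on the minus strand for Ctsg, the gene of cathepsin G, a further primary granule protease.
Mpo: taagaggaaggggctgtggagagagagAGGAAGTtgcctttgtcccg
Elane: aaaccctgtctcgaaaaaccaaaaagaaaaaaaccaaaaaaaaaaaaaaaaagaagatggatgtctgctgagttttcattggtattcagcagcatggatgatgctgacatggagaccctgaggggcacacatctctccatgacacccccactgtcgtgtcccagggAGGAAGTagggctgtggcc
Prtn3: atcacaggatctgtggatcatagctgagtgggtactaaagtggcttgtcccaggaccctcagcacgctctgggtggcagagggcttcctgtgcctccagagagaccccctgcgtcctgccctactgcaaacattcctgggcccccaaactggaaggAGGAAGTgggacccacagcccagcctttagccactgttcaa
Ctsg: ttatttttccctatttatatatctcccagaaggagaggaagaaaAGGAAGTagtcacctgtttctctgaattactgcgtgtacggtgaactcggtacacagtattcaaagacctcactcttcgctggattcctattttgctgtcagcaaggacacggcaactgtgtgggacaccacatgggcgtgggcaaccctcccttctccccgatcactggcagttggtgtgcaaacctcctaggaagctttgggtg
Counted from the RefSeq start, AGGAAGT begins at -84 in Elane, -94 in Prtn3, -223 in Mpo and -206 in Ctsg. It was found in 4 of the 10 members, these 3 primary genes and S100a8, beside 9.35% of 32851 promoters of the same length. Ms4a3, a further primary granule gene that was also searched, did not hold it. The letters AACGG, which Myb binds, occur at -50 in Elane and -55 in Prtn3 and in no other member, beside 17.4% of all promoters. Neither match lies wholly within its run above, and the Elane match lies inside the annotated gene. Elane and Prtn3 therefore share both sets of letters in nearly the same places. The Prtn3 run lies inside the annotated gene, which starts further upstream, and outside its annotated exons. Reads counted by gene do not show which transcript they came from. The letters were chosen after the sequences were read, and a match describes a sequence and is neither a bound site nor a cause.

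**Figure D2:**
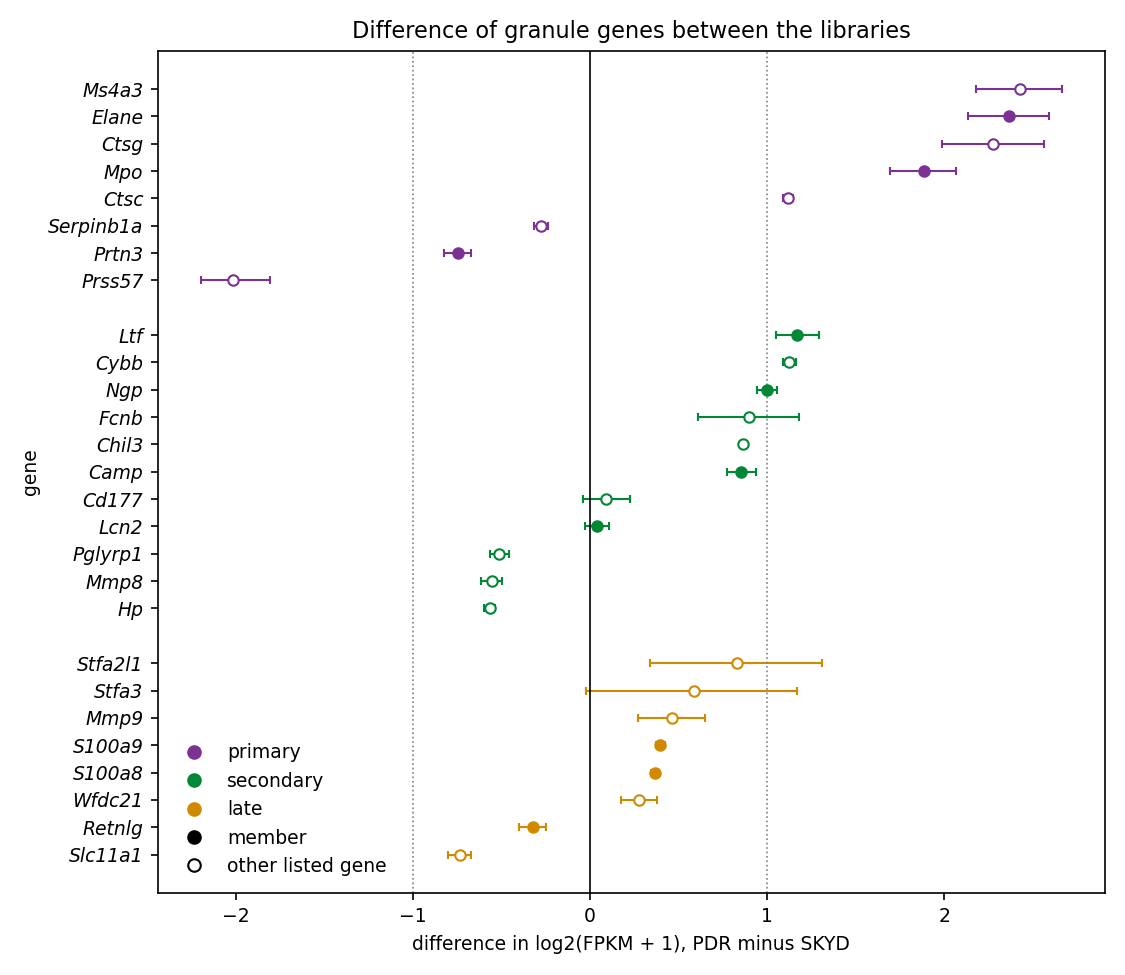
Difference in log2(FPKM + 1), PDR minus SKYD, for the members (filled) and the other listed genes of each granule stage (open) with a mean FPKM of at least 1, with exact 95% counting intervals. Dotted lines mark 2-fold. Among the primary granule genes, Ms4a3, Elane, Ctsg and Mpo lie between 1.89 and 2.43, and Serpinb1a, Prtn3 and Prss57 lie below 0.

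The wider list of primary granule genes also held differences in both directions, as the plot of differences by stage shows. Of its 9 genes, 8 were tested, with a median difference of 1.501. Past 2-fold towards PDR were 5 genes (Mpo, Elane, Ctsg, Ms4a3 and Ctsc), and 1 was past it towards SKYD. Ctsg had 16.4 and 2.60 FPKM, a difference of 2.28 (1.99 to 2.57). Ms4a3, a membrane protein gene of granulocyte and monocyte progenitors, had 10.5 FPKM in PDR and 1.13 FPKM in SKYD, a difference of 2.43 (2.18 to 2.66). Ctsg over Elane was 0.482 in PDR and 0.446 in SKYD, a ratio of ratios of 1.08 with a wide interval (0.782 to 1.504), while for Ms4a3 over Elane the ratio of ratios was 1.58 (1.12 to 2.26). Ctsc, the protease that activates the granule proteases and that macrophages also make, had 210.5 and 96.5 FPKM, a difference of 1.12. Serpinb1a, an inhibitor of these proteases, had 178 and 216 FPKM, a difference of -0.28. Prss57, a granule protease gene 83514 bases before Prtn3, was the gene past 2-fold towards SKYD, with 0.434 FPKM from 29 reads in PDR and 4.81 FPKM from 342 reads in SKYD; it was picked out after its values were seen. Its ratio was 11.1 (7.58 to 16.8) in the SKYD direction, but 37.7% of its windows are shared with the overlapping Fstl3, so its count is uncertain, and it passed the filter only through its level in SKYD. Bpi, the gene below the filter, had 0 and 1 reads.

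Among the secondary granule genes, Camp, Ngp and Ltf were 1.82-fold to 2.41-fold higher in PDR and Lcn2 was level. Camp encodes cathelicidin, an antimicrobial peptide. The gene (ENSMUSG00000038357, chr9:109847379-109849617, minus strand) had 188 FPKM from 3355 reads in PDR and 104 FPKM from 1966 reads in SKYD, a ratio of 1.82 (1.72 to 1.92) and a difference of 0.85 (0.77 to 0.93). Ngp encodes neutrophilic granule protein, a cystatin relative. The gene (ENSMUSG00000032484, chr9:110419747-110423012, plus strand) had 262 FPKM from 7512 reads in PDR and 131 FPKM from 3986 reads in SKYD, a ratio of 2.01 (1.93 to 2.08). The interval of its difference, 0.94 to 1.05, spans the 2-fold threshold, so on counting error alone Ngp could stand on either side. Ltf encodes lactoferrin, the iron-binding protein of the secondary granule. The gene (ENSMUSG00000032496, chr9:111019271-111042767, plus strand) had 18.7 FPKM from 1512 reads in PDR and 7.74 FPKM from 667 reads in SKYD, a ratio of 2.41 (2.20 to 2.65) and a difference of 1.17 (1.05 to 1.29). These 3 genes lie on chromosome 9, with Camp and Ngp 570129 bases apart.

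Lcn2 encodes lipocalin 2, which binds bacterial siderophores and is also made by macrophages and epithelia. The gene (ENSMUSG00000026822, chr2:32384633-32388252, minus strand) had 51.7 FPKM from 3184 reads in PDR and 50.3 FPKM from 3297 reads in SKYD. Its difference of 0.04 (-0.03 to 0.11) was not separable from 0 on counting error. Ltf over Lcn2 was 0.361 in PDR and 0.154 in SKYD, a 2.35-fold difference in ratio (2.11 to 2.61), whereas Ngp over Camp was 1.39 and 1.26, a 1.10-fold difference (1.03 to 1.18). Lcn2 thus differed from the other 3 secondary members, though not from all genes of its stage in the wider list.

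The letters TTGCNNAA, a match to the core bound by C/EBP factors, were in the RefSeq promoters of 5 members, Ngp, Ltf, Lcn2, Retnlg and S100a9, and of none of the primary members, beside 10.8% of all promoters. Of the other primary granule genes searched, Ms4a3 held these letters, at position 41 from the RefSeq start, and Ctsg did not. The runs for Ngp (chr9:110419558-110419746) and Ltf (chr9:111019042-111019270), both on the plus strand, are shown with these letters, read on either strand, in capitals. They were chosen because Ngp and Ltf gave the largest ratios among the secondary members.
Ngp: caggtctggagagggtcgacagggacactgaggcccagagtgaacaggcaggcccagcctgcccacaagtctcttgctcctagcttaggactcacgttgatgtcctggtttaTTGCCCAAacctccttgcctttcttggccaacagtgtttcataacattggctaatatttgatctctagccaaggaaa
Ltf: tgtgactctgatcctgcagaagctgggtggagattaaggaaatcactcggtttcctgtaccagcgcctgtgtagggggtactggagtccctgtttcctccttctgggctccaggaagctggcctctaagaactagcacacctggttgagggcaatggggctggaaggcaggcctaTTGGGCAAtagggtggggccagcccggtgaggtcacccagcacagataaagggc
Within these runs the match starts at -138 in Ngp and -75 in Ltf, counted from the RefSeq start. Lcn2, which was level between the libraries, and Retnlg, which was higher in SKYD, hold the same letters. Whether these letters bear on the differences was not tested. These letters, too, were chosen with the sequences in view.

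The wider secondary list had 12 genes, of which 11 were tested, with a median difference of 0.85. Past 2-fold towards PDR were 2 of them, Ltf and Cybb, and 0 towards SKYD. Cybb, the catalytic subunit of the phagocyte NADPH oxidase, had 120 and 54.3 FPKM, a difference of 1.13. Chil3, a chitinase-like protein gene active in neutrophil precursors, monocytes and macrophages, was the most abundant of the list, with 2264 and 1245 FPKM and a difference of 0.86. Hp, which encodes haptoglobin, ran the other way, with 362 FPKM in PDR and 537 FPKM in SKYD, a difference of -0.57. Of the tested secondary genes, 8 were higher and 3 lower in the PDR library, beside 5158 and 5240 of all tested genes. The 8 include Lcn2 and Cd177, whose intervals (-0.03 to 0.11 and -0.04 to 0.22) include 0. Like Lcn2, Cd177 was near 0 (0.09), and Pglyrp1 (-0.51) and Mmp8 (-0.56) lay with Hp; these 3 were picked out after their values were seen. Olfm4, below the filter, had 0 reads in PDR, which allows up to 1.3e-05% of that library, and 48 reads in SKYD.

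The late genes were within 2-fold, and S100a8 and S100a9 were the most abundant members. S100a8 and S100a9 encode the subunits of calprotectin, a calcium- and zinc-binding protein that fills the neutrophil cytosol. S100a8 (ENSMUSG00000056054, chr3:90668978-90670035, plus strand) had 1911 FPKM from 31150 reads in PDR and 1483 FPKM from 25727 reads in SKYD, a ratio of 1.29 (1.27 to 1.31). S100a9 (ENSMUSG00000056071, chr3:90692632-90695721, minus strand), which lies 22596 bases away, had 2209 FPKM from 27087 reads in PDR and 1677 FPKM from 21885 reads in SKYD, a ratio of 1.32 (1.29 to 1.34). The genes of this pair stayed close in proportion, with S100a9 over S100a8 at 1.16 in PDR and 1.13 in SKYD (ratio of ratios 1.02, 0.998 to 1.05). Their differences, 0.37 and 0.40, lay at percentiles 76.1 and 77.6 of all tested genes. The narrow intervals reflect their depth, and no interval here covers the spread between mice.

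Retnlg, a resistin-like gene of late and mature neutrophils, was the late gene that was higher in the SKYD library. The gene (ENSMUSG00000022651, chr16:48872621-48874496, plus strand) had 172 FPKM from 2394 reads in PDR and 215 FPKM from 3192 reads in SKYD. It was 1.25-fold (1.19 to 1.32) higher in SKYD, with a difference of -0.32 (-0.40 to -0.25), at percentile 26.9 of all tested genes. Set against a secondary gene of like level, Camp over Retnlg was 1.10 in PDR and 0.482 in SKYD, a 2.28-fold difference in ratio (2.11 to 2.46). The wider late list had 12 genes, of which 8 were tested, with a median of 0.38 and 0 past 2-fold in either direction. Slc11a1, a metal transporter gene of phagocytes, had 33.6 and 56.7 FPKM (difference -0.74), and Stfa2l1, a stefin gene, had 7.21 FPKM from 71 reads and 3.63 FPKM from 38 reads (difference 0.83, 0.34 to 1.31). Below the filter were Mmp25, Stfa1, Stfa2 and BC100530. Stfa1 had 21 reads in PDR and 0 in SKYD, and Stfa2 had 7 and 0. Mmp25 ran the other way, with 9 reads in PDR and 38 in SKYD, and BC100530 had 4 and 6.

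**Figure D3:**
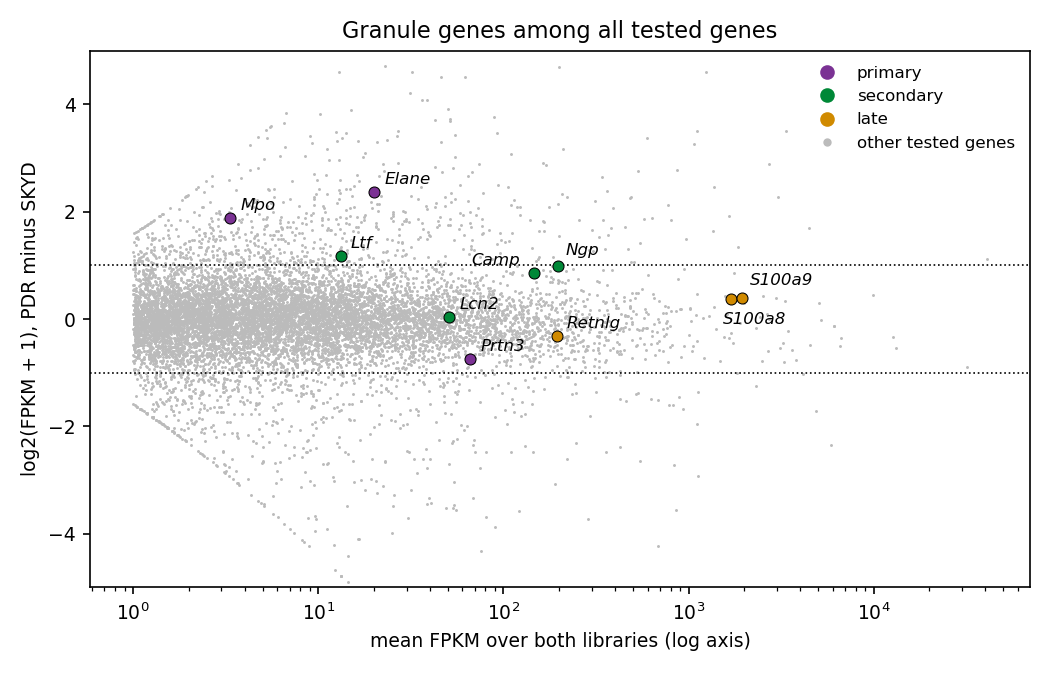
Difference in log2(FPKM + 1), PDR minus SKYD, against mean FPKM (log axis) for all 10399 tested genes (grey) and the 10 granule genes, coloured by stage, with 2-fold marked by dotted lines. The 20 genes beyond a difference of 5 in size are outside the axis. Elane and Mpo lie well above the upper line, and the late genes lie between the lines at high level.

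Among all tested genes, as plotted by mean level, Elane and Mpo stood in the upper fringe, and Camp, Ngp and Ltf lay between percentiles 90.7 and 94.1. Lcn2, at percentile 53.7, lay in the middle of all genes. The 3 members past 2-fold, Mpo, Ltf and Elane, were also the 3 with the lowest mean FPKM. Among the more abundant members, Camp, Ngp and Retnlg had mean levels close to each other, and Retnlg lay on the other side of 0.

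As a share of the reads of the 10 genes, the primary genes made up 4.10% (3.96% to 4.24%) in PDR and 5.92% (5.74% to 6.11%) in SKYD. By this measure the primary stage was lower in PDR, the opposite of its median difference, and 1 gene supplied most of its reads. Prtn3 gave 61.5% of the reads of the primary genes in PDR and 94.4% in SKYD. Without Prtn3, an alternative chosen after the data were seen, Mpo and Elane made up 1.62% (1.53% to 1.71%) of the reads of the other 9 genes in PDR and 0.353% (0.307% to 0.403%) in SKYD. The summed FPKM of the primary genes was 89.1 in PDR and 90.0 (90.03) in SKYD, against 520.5 and 292 for the secondary genes and 4292 and 3376 for the late genes. S100a8 and S100a9 gave 73.3% of the members' reads in PDR and 73.8% in SKYD, and the secondary genes 19.6% and 15.4%. All 10 genes together took 0.344% of the reads on genes in PDR and 0.254% in SKYD. The order of the libraries by primary share of reads thus turned on whether Prtn3 was counted.

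**Figure D4:**
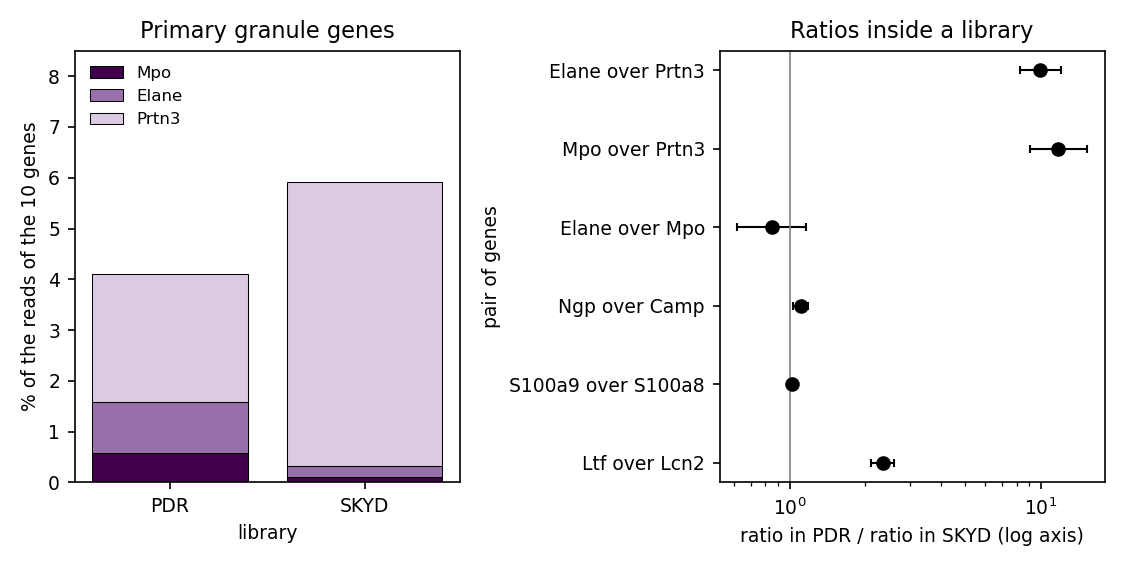
Left, reads of Mpo, Elane and Prtn3 as a percentage of the reads of the 10 granule genes in each library, stacked by gene. Right, ratio of 2 genes' FPKM in PDR divided by the same ratio in SKYD (log axis, exact 95% counting intervals), where 1 means the same proportion in both libraries. Pairs with Prtn3 lie near 10, and S100a9 over S100a8 lies at 1.02.

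The plot of shares and ratios sets pairs whose proportion was close in both libraries, such as S100a9 with S100a8, beside those with Prtn3. Across stages, Elane over Ngp was 0.130 in PDR and 0.0446 in SKYD, a 2.92-fold difference in ratio (2.43 to 3.53). Elane was thus higher in PDR also relative to a secondary gene that was itself higher there.

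Neutrophil markers outside the granules were found in both libraries. Ly6g, the surface protein that defines mouse neutrophils, had 10.5 FPKM from 232 reads in PDR and 4.20 (4.205) FPKM from 99 reads in SKYD, a ratio of 2.49 (1.96 to 3.19). Cxcr2, the chemokine receptor of mature neutrophils, had 4.27 and 2.51 FPKM, and Csf3r, the G-CSF receptor, had 12.6 and 7.67 FPKM. Cxcr1 had 0 reads in both. These values put the granule genes in libraries with neutrophil transcripts, at levels far below those of S100a8 and S100a9. The list of mature neutrophil genes was mixed: of 12 genes, 11 were tested, the median was 0.45, and 3 genes were past 2-fold towards PDR (Ly6g, Fpr1, Fpr2) and 3 towards SKYD (Il1r2, Padi4, Trem1), with summed reads of 20128 in PDR and 22186 in SKYD. Fpr2, a formyl peptide receptor, had 98.9 and 40.2 FPKM (difference 1.28), whereas Il1r2, a decoy receptor for interleukin 1 and the most abundant of the list, had 23.6 and 116 FPKM (difference -2.25). Padi4, the enzyme that citrullinates histones, had 8.04 and 22.7 FPKM (difference -1.39).

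The transcription factors of granulocyte development mostly stood higher in the SKYD library. Whether this bears on the split of the primary genes was not tested. Of 8 genes, all tested, the median was -0.86, with 0 past 2-fold towards PDR and 2, Gfi1 and Myb, towards SKYD. Gfi1, a repressor needed for neutrophil development, had 0.414 FPKM from 31 reads in PDR and 3.54 FPKM from 282 reads in SKYD. Myb, a factor of progenitors, had 0.081 FPKM from 17 reads and 2.53 FPKM from 564 reads. Both passed the filter only through SKYD, and both are also expressed in developing lymphocytes. Cebpe, the factor of the secondary granule program, had 1.78 FPKM from 52 reads and 1.16 FPKM from 36 reads, a difference of 0.37 whose interval (-0.01 to 0.73) includes 0. Cebpb and Spi1, the latter encoding PU.1, had 194 and 108 FPKM in PDR and 360 (360.1) and 179 FPKM in SKYD, with differences of -0.89 and -0.72. They gave 6837 and 6856 of the list's 15212 reads in PDR, and 13538 and 12061 of its 29204 reads in SKYD. The macrophage list, with a median of -0.61, also leaned to SKYD, and which cells the factor reads came from was not tested. Of the 7 progenitor and cell cycle genes, 6 were tested, with a median of -0.14, 0 past 2-fold in PDR and 1, Cd34, in SKYD, at 0.339 FPKM in PDR and 1.72 FPKM in SKYD, which likewise passed only through SKYD.

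**Figure D5:**
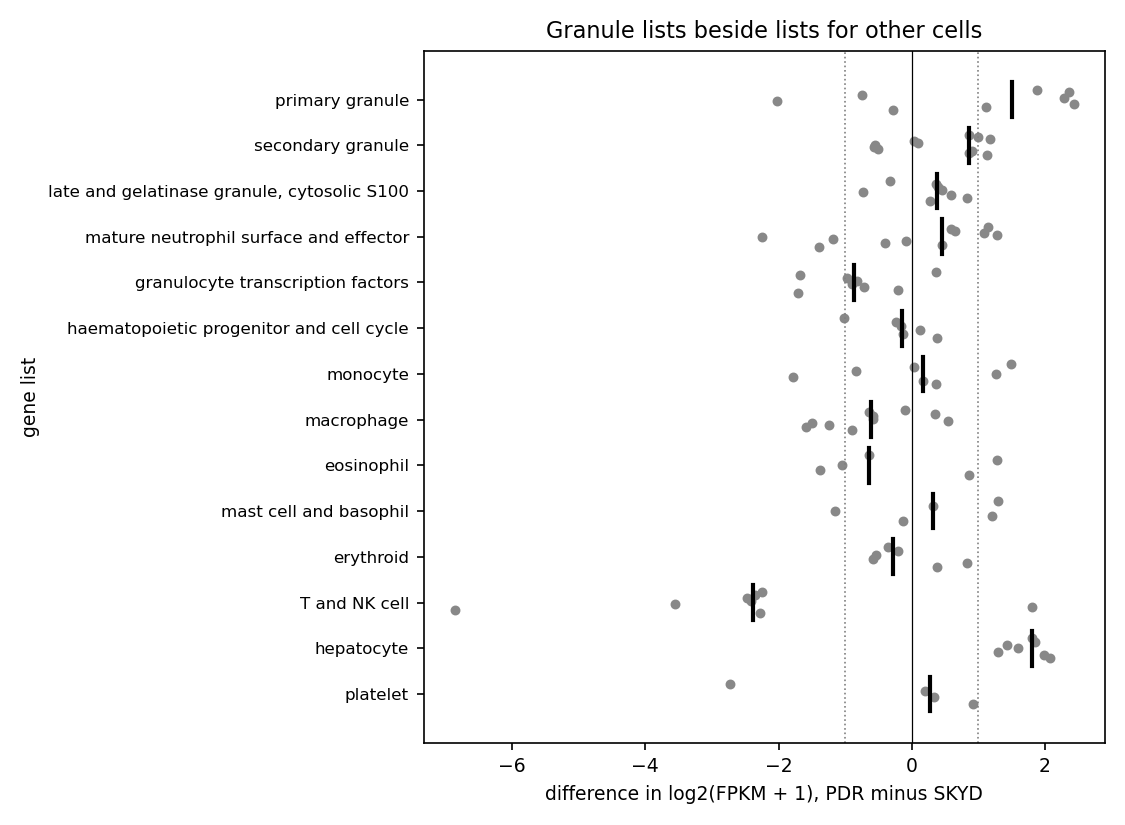
Difference in log2(FPKM + 1), PDR minus SKYD, of every tested gene (points) in the 3 granule lists and 11 lists for other cells or roles, with the median of each list as a bar and 2-fold as dotted lines. The hepatocyte list lies wholly above 0 and all but 1 gene of the T and NK cell list lies below -2.

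The libraries also differed in markers of other cells, as the plot of lists shows, and their part in the granule gene differences was not tested. Adgre1, which encodes F4/80, had 87.3 and 93.3 FPKM, and Itgam, which encodes CD11b, had 8.84 and 14.4 FPKM, so both sorting markers were present. Of 10 macrophage genes, all tested, the median was -0.61, with 0 past 2-fold in PDR and 3, C1qa, C1qb and C1qc, in SKYD; the list took 3.35% of reads in PDR and 6.13% in SKYD, and Lyz2, which neutrophils also express, was its most abundant gene at 22217 and 41336 FPKM. Of 8 monocyte genes, 7 were tested, with a median of 0.17, 2 past 2-fold in PDR (Ly6c2, Irf8) and 1 in SKYD (Fn1), and summed reads of 118812 and 69417. Ly6c2, a surface protein of inflammatory monocytes and the most abundant of that list, had 1436 and 512 FPKM, a difference of 1.49. Ly6c2 gave 92400 of the list's reads in PDR and 35051 in SKYD, and the other genes together had more reads in SKYD. Ccr2, the second most abundant, was level (0.04), and Fn1 was lower in PDR (-1.78), so the monocyte list did not differ in 1 direction.

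Markers of cells that the sort was not meant to collect differed as well. Of 8 T and NK cell genes, all tested, 7 were past 2-fold in SKYD and 1, Ncr1, in PDR (median -2.38, 6121 and 50704 reads, Cd3d the most abundant, Rag1 at 0 in PDR). Dntt, an enzyme of developing lymphocytes, had 0.780 FPKM in PDR and 206 FPKM in SKYD, with a PDR level under the filter. All 7 hepatocyte genes were past 2-fold in PDR (median 1.81, 51934 and 17093 reads, Apoa2 the most abundant, none at 0). Of 5 platelet genes, 4 were tested, with 0 past 2-fold in PDR and 1, Pf4, in SKYD (median 0.27, 4612 and 26741 reads, Pf4 the most abundant, none at 0). Pf4 alone gave 3690 of these reads in PDR and 26049 in SKYD. In sign, the other 3 tested platelet genes were higher in PDR, so the platelet list did not differ in 1 direction. Of 8 erythroid genes matched, 6 were tested, with 0 past 2-fold in either direction (median -0.29, 394311 and 561146 reads, Hba-a1 the most abundant, Klf1 at 0 in PDR). Mpo and Elane therefore differed between libraries that also differed by more than 2-fold in T cell and liver transcripts and in Pf4.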

How the data were processed

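RNA of sorted aortic macrophages was measured in 1 pooled library per group (PDR, SKYD). The authors removed reads with adaptors, undetermined bases or low quality, aligned with TopHat2 2.0.9 and Bowtie2 2.0.6, counted reads per gene with HTSeq 0.6.1 and deposited FPKM values, with no column of their comparison used here. The submitters' processing notes name DESeq 3.18.1 and build mm9, but 98.3% of 54409 shared genes, and all 10 members, had the starts and ends of GENCODE M21 (GRCm38), so positions are given as GRCm38. Whether counting used strand is not given in the sources used here. Whole reads were recovered from FPKM times gene length, within 0.01 of a whole number for 100% of values above 0, and recovery was tested on simulated data. The deposited FPKM values were compared as log2(FPKM + 1) at a mean FPKM of at least 1, with more than 2-fold as the threshold. Intervals are 95% Clopper-Pearson (read splits, shares), Poisson (levels) or exact conditional odds ratio (ratios of ratios). With 1 library per group there was no test. Members and lists were chosen with earlier results of these data known. Beside the members, genes named were the 2 most abundant and the 2 with the largest difference of each list, and Ctsg, Ly6g, Cxcr2, Csf3r, Cebpe, Gfi1, Adgre1, Itgam, Epx and Mcpt8; others were named after their values were seen. Alternatives were other pseudocounts, filters, thresholds, scalings and lists. A further marker list is not reported here. Promoters came from RefSeq (GRCm38.p6). Computation was in Python 3.11.15 with scipy 1.17.1, pandas 2.3.3 and numpy 2.4.6, and plots were drawn with matplotlib 3.10.9.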

Additional observations from a re-analysis of the deposited data

How the results depend on the processing

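Of 156 alternative values, 126 stayed within their counting interval or within 1.5 times a count, 30 moved further and 0 differences changed sign, but the order of the libraries by primary share of reads was reversed without Prtn3. No paired analysis was possible because each group had 1 library, and for the same reason no replicate could be left out, so the spread between mice is unknown. With a mean FPKM of at least 5, genes past 2-fold were 464 (PDR) and 373 (SKYD), and the wider primary list had 0 higher in SKYD, since Prss57 was filtered out. At 4-fold the counts were 194 and 216, with 1 member (Elane) and, in the wider lists, 3 primary and 0 secondary genes higher in PDR. Among protein-coding genes 473 were higher in SKYD. With a pseudocount of 0.01 the Mpo difference was 2.77, the primary median 2.55 and the secondary list count 4; with 0.1 they were 2.65, 2.53 and 4. After rescaling to TPM, the Mpo difference and the primary median were 2.16 and the late list had 1 gene higher in PDR, as it had (1) with no filter. Scaled to the sum of reads, S100a8 was 0.42, S100a9 0.45 and the late median 0.42. The wider lists gave medians of 1.501 (primary) and 0.85 (secondary). The primary share in PDR and SKYD was 1.82% and 2.40% of FPKM, 15.4% and 22.6% of reads without S100a8 and S100a9, and 1.62% and 0.353% without Prtn3, the last chosen after seeing the data. Members more than 2-fold higher in PDR were 4, with Ngp, under either smaller pseudocount, TPM, the sum of reads or centring on the median, while all genes past it, 767 before, were 1096 (0.01), 1057 (0.1), 1047, 817 and 773. Members past it were 2 at a mean FPKM of at least 5. Mpo had the fewest reads of any member, with 72 in SKYD. The cause of moves not named was not tested.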

Other observations

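Granule genes of other granulocytes differed in both directions. Of 9 eosinophil genes, 5 were tested, with a median difference of -0.64, 1 past 2-fold in PDR (Prg3) and 2 in SKYD (Ear1, Ear2), and summed reads of 5791 in PDR and 14680 in SKYD. Epx, eosinophil peroxidase and the nearest relative of Mpo among the listed genes, had 0 reads in both libraries. Ear2, an eosinophil-associated ribonuclease that macrophages also express, was the most abundant, with 295 FPKM in PDR and 769 FPKM in SKYD (difference -1.38). Prg2, which encodes the major basic protein, had 14.5 and 23.3 FPKM (difference -0.64), while its relative Prg3 had 2.65 FPKM from 59 reads and 0.506 FPKM from 12 reads (difference 1.28, 0.85 to 1.62). Prg3 passed the filter only through PDR.

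Of 9 mast cell and basophil genes, 5 were tested, with a median of 0.31, 2 past 2-fold in PDR (Mcpt8, Cma1) and 1 in SKYD (Cpa3), and summed reads of 891 and 1005. Mcpt4 and Tpsb2, proteases of connective tissue mast cells, had 0 reads in both libraries. Mcpt8, a basophil protease, had 6.14 FPKM from 144 reads in PDR and 1.92 FPKM from 48 reads in SKYD (difference 1.29), and Cma1, a chymase, had 2.58 FPKM from 66 reads and 0.551 FPKM from 15 reads (difference 1.21), passing the filter only through PDR. Cpa3, a mast cell and basophil carboxypeptidase, had 5.75 and 13.98 FPKM (difference -1.15, -1.36 to -0.94). On chromosome 10, from Prss57 to Cfd, 13 genes are annotated and 5 were tested. Between the granule genes there, Palm had 3.30 and 2.48 FPKM (difference 0.30) and Ptbp1, a widely expressed splicing factor, had 16.8 and 19.5 FPKM (difference -0.21). Cfd, complement factor D, had 0 reads in PDR and 36 in SKYD. These genes were named for their position after their values were seen.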
